A study of Mus musculus with 6 samples.

Results

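Lipid-associated macrophages are the macrophages that gather around dying fat cells in adipose tissue, and 10 genes that are known to mark them (Gpnmb, Trem2, Cd9, Spp1, Lpl, Fabp5, Ctsk, Atp6v0d2, Lgals3 and Itgax) were followed here among the 22180 genes of the array that could be tested. For each gene the probe set with the highest mean was taken among those that the array annotation assigns to 1 gene symbol. This gave values for 9 of the 10 genes, and Spp1, which encodes the secreted protein osteopontin, was not analysed here. RNA came from the stromal vascular fraction (SVF), the cells left after the floating adipocytes are removed, of gonadal white adipose tissue (gWAT) of wild-type C57Bl/6 mice. Of the 6 Affymetrix Mouse Gene 2.0 ST arrays, 3 were of vehicle-treated mice and 3 of mice given CL316243 (CL), an agonist of the β3-adrenergic receptor that stimulates lipolysis in fat cells, at 1 mg/kg in 0.1 ml by intraperitoneal injection. The labels give mice aged 8 weeks and daily injection for 3 days, whereas the general methods of the study describe a longer course and, for tissue fractionation, younger female mice, and which of these applied to the arrays is not settled. The labels give no engineered allele and no cell sorting for either group, and whether an array holds 1 mouse or a pool is not given.

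Macrophages of this kind lie in crown-like structures, where they take up the lipid and debris of dying adipocytes and break it down in their lysosomes. The lipid-sensing receptor TREM2, which signals through the adaptor TYROBP (DAP12), is known to be needed for the programme in obese mice. Several of its genes, among them those for cathepsin K and the d2 subunit of the proton pump, are shared with osteoclasts, and others, such as those for lipoprotein lipase, CD9 and galectin-3, are also made by cells other than macrophages, so a level in unsorted SVF does not name its source.

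CL treatment was accompanied by higher levels of Gpnmb, a transmembrane glycoprotein of macrophage endosomes and lysosomes, and of Lpl, the secreted enzyme that releases fatty acids from lipoprotein triglyceride. Gpnmb rose 4.29-fold and Lpl 1.78-fold. Of the 9 genes measured, 2 rose, 0 fell and 7 did not pass the test (limma, Benjamini-Hochberg adjusted p under 0.05 over all genes tested), whereas 0.198% of all genes tested rose. At an unadjusted p under 0.05, limma gave 5 of the 9 as higher and 0 as lower, against 9.4% of all genes higher and 5.38% lower. The methods' t-test is the two-sided test of the study's general statistics section, which shares no spread between genes. Unadjusted, it gave 3 higher and 0 lower, against 1561 higher and 1047 lower of all 22180 genes. The mean was higher with CL for 8 genes and lower for 1, where 50.4% of all genes had a higher mean, and the median log2 difference was 0.45 over the 9 genes and 0.00 over all genes. All 3 CL arrays lay above all 3 vehicle arrays for 3 genes, Gpnmb, Lpl and Ctsk, and this held for 11.2% of all genes tested. All levels are log2 values as deposited, differences are CL minus vehicle, and levels are compared between arrays and never between genes.

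**Figure D1:**
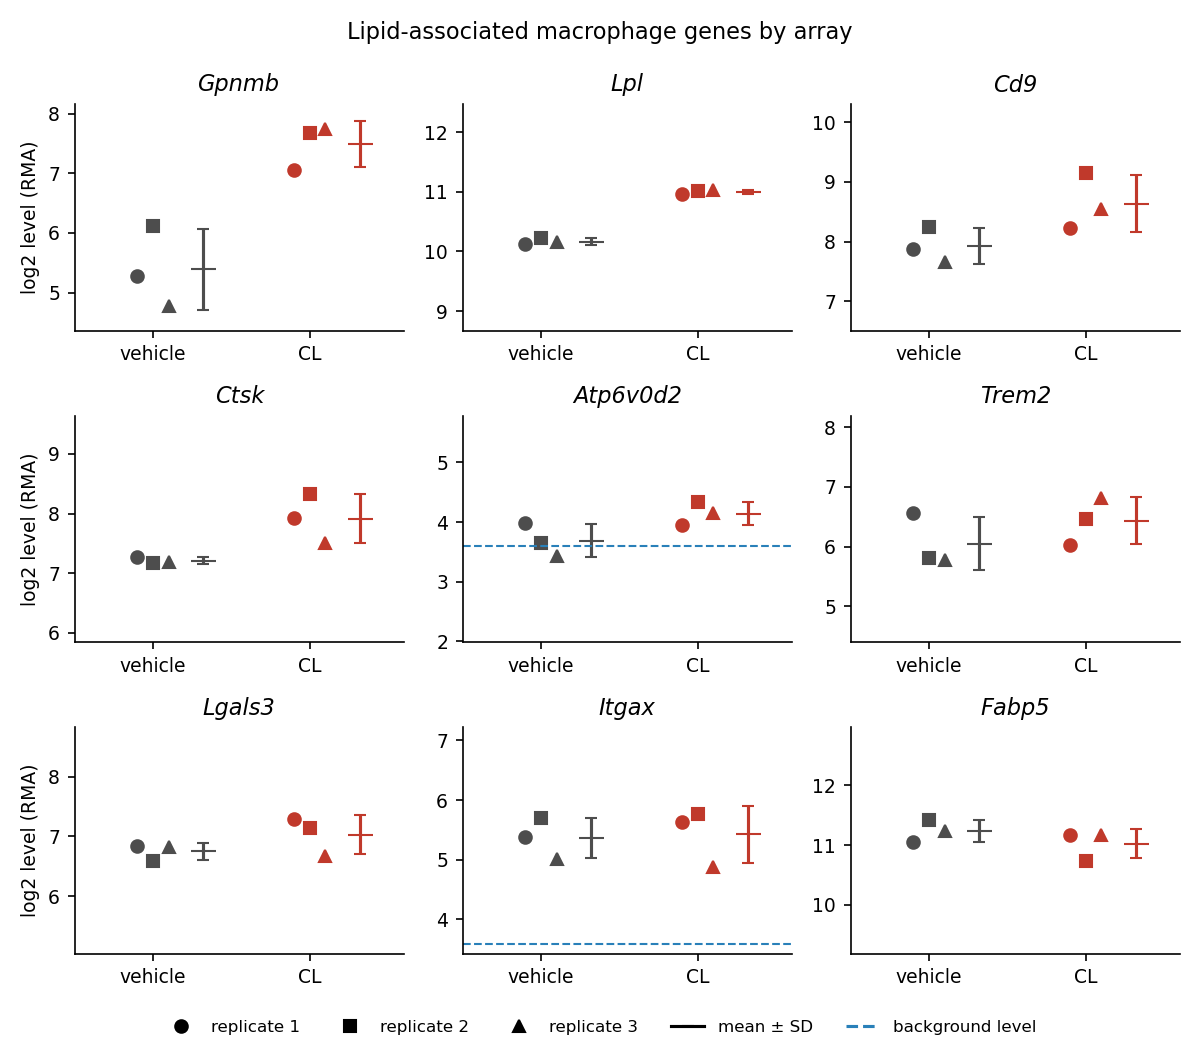
Log2 level (vertical axis) of each of the 9 genes on each array, with vehicle and CL arrays side by side, points marked by replicate number, the mean and SD of each group of 3 arrays, and the background level as a dashed line where it falls within a panel. The CL arrays lie above the vehicle arrays for Gpnmb, Lpl and Ctsk, and the groups overlap for the other 6 genes.

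The arrays themselves bear on how these values can be read. Macrophage RNA was present on every array, with the mean of 12 pan-macrophage markers between 8.65 and 8.95 in vehicle-treated and between 8.72 and 8.94 in CL-treated SVF, a difference of 0.06 between the group means. Of these markers, 0 passed the test (limma). Before adjustment 1 was lower and 0 higher at 0.05, against 5.38% and 9.4% of all genes, and the methods' t-test, unadjusted, gave 0. Signal from other cells differed between arrays. The mean of 4 epithelial markers (Epcam, Krt8, Krt18, Cdh1) was 7.26 on vehicle replicate 2 and 8.34 on CL replicate 2, against 4.90 and 4.98 on the other vehicle arrays and 4.61 and 5.93 on the other CL arrays. The background level, set from receptors of smell, was 3.59, and none of the 9 genes had its means below it in both groups. In bulk RNA, a change in the number of cells of a type and a change in the RNA made per cell cannot be told apart. Because the labels say only that the arrays are biological replicates, the p-values measure the spread between these arrays. With 3 arrays in each group the smallest two-sided p of an exact permutation test is 0.10, and adjusted p-values below are from limma fitted across all genes unless the methods' t-test is named.

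Among the surface proteins, Gpnmb had the largest difference. Its level was 5.27, 6.12 and 4.78 in vehicle-treated and 7.05, 7.68 and 7.74 in CL-treated SVF. Every CL array lay above every vehicle array, and the vehicle arrays differed more among themselves than the CL arrays did. The means were 5.39 ± 0.67 and 7.49 ± 0.38 (SD, n = 3), a log2 difference of 2.10 (SE 0.33, 95% interval 1.36 to 2.84, adjusted p = 0.0434). The fold of 4.29 has an interval of 2.56 to 7.17, and the difference ranked 7 among all 22180 genes ordered from the most increased. The difference lay between 1.80 and 2.46 when each array was left out in turn, and Gpnmb passed the test without vehicle replicate 2 (adjusted p = 0.0409) but not without vehicle replicate 1 (0.0891), vehicle replicate 3 (0.105), CL replicate 1 (0.102), CL replicate 2 (0.164) or CL replicate 3 (0.173). Without the arrays that were highest in epithelial markers it was 2.37 (adjusted p = 0.119).

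Trem2, the receptor itself, did not pass the test. Its level was 6.56, 5.82 and 5.77 in vehicle-treated and 6.03, 6.47 and 6.82 in CL-treated SVF. The groups overlapped, with vehicle replicate 1 above both CL replicate 1 and CL replicate 2. In log2 units the difference was 0.39 (SE 0.26, 95% interval -0.21 to 0.99, adjusted p = 0.555), an interval that reaches folds of 0.864 and 1.98.

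Cd9 encodes a tetraspanin, a membrane organizer used to separate lipid-associated from other macrophages, that is also made by many epithelial and stromal cells. Its level was 7.88, 8.24 and 7.66 in vehicle-treated and 8.22, 9.15 and 8.54 in CL-treated SVF. The groups overlapped only through vehicle replicate 2, which lay slightly above CL replicate 1, and the highest array of each group was the one with the highest epithelial markers. The log2 difference was 0.71 (SE 0.25, 95% interval 0.14 to 1.28, adjusted p = 0.239), and it was 0.61 (adjusted p = 0.433) without those arrays. The part of the epithelial signal in the Cd9 level was not tested. A further probe set assigned to Cd9 had means of 3.54 and 3.56, below the background level.

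Itgax, which encodes the integrin subunit CD11c of dendritic cells and of macrophages in inflamed fat, had the smallest difference of the 9 genes. Its level was 5.38, 5.70 and 5.02 in vehicle-treated and 5.63, 5.77 and 4.88 in CL-treated SVF. Both the highest and the lowest array were of CL-treated mice. The groups differed by 0.06 in the mean (SE 0.26, 95% interval -0.53 to 0.65, adjusted p = 0.945), and it turned to -0.04 with quantile normalization and -0.03 with cyclic loess.

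The lipid-handling genes did not move together. Lpl had a level of 10.12, 10.23 and 10.16 in vehicle-treated and 10.96, 11.01 and 11.03 in CL-treated SVF. The groups were far apart relative to their spread. The means were 10.17 ± 0.055 and 11.00 ± 0.033 (SD, n = 3), a log2 difference of 0.84 (SE 0.13, 95% interval 0.54 to 1.13, adjusted p = 0.0415). The fold of 1.78 has an interval of 1.46 to 2.19. The difference lay between 0.81 and 0.86 when each array was left out in turn, but the adjusted p was then 0.0891 without vehicle replicate 1, 0.0973 without vehicle replicate 2, 0.120 without vehicle replicate 3, 0.107 without CL replicate 1, 0.160 without CL replicate 2 and 0.167 without CL replicate 3, so that each array was needed for the call. Without any single CL array, 0 of all genes tested passed (limma), although before adjustment 1413 to 1874 genes were higher and 894 to 992 lower at 0.05. A further probe set of Lpl read 10.13, 10.19 and 10.25 in vehicle-treated and 10.77, 10.62 and 10.74 in CL-treated SVF. It also had no overlap between groups, with a smaller difference of 0.52 (SE 0.13, adjusted p = 0.134).

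Lpl is an abundant transcript of adipocytes as well as of macrophages, and most adipocyte markers were above background in these samples, with Lep the only one of 6 below it in both groups. Of these 6 markers, 3 were higher and 3 lower in the mean, and 0 passed the test (limma). Before adjustment 3 were higher and 1 lower at 0.05, against 9.4% and 5.38% of all genes. Their mean ranged from 5.58 to 5.72 on vehicle arrays and from 5.46 to 6.79 on CL arrays. Adipoq, the adipokine adiponectin, read 6.65, 7.09 and 7.16 in vehicle-treated and 8.55, 7.72 and 8.36 in CL-treated SVF, a log2 difference of 1.24 (SE 0.24, adjusted p = 0.0730). Plin1, which coats the lipid droplets of adipocytes, differed by 1.44 (SE 0.29, adjusted p = 0.0816), and Plin4, a perilipin of adipocytes, by -0.59 (adjusted p = 0.315). The means of Cidec and Lep were also lower, by -0.51 (adjusted p = 0.670) and -0.30 (0.597). Ucp1, the uncoupling protein of thermogenic adipocytes, read 3.50, 3.51 and 3.35 in vehicle-treated SVF, all below background, and 6.54, 4.12 and 3.99 in CL-treated SVF (difference 1.43, adjusted p = 0.295). CL replicate 1 had the highest and CL replicate 2 the lowest Adipoq and Plin1 among the CL arrays. The 3 lay close together for Lpl (10.96, 11.01 and 11.03). The further probe set of Lpl, at 10.77, 10.62 and 10.74 on these arrays, had the order of Adipoq and Plin1. The part of adipocyte RNA in the Lpl level was not tested.

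Fabp5, which encodes a carrier of fatty acids in the cytosol, was the only one of the 9 genes with a lower mean in CL-treated SVF. Its level was 11.05, 11.42 and 11.24 in vehicle-treated and 11.16, 10.74 and 11.16 in CL-treated SVF. The groups overlapped, and CL replicate 2 was the lowest array. The log2 difference was -0.21 (SE 0.17, 95% interval -0.61 to 0.18, adjusted p = 0.630). Of the other probe sets assigned to this gene, 1 gave -0.24 and the others 0.06 and 0.26, so the direction depended on the probe set, and because the gene has processed copies in the mouse genome its values are uncertain. The direction also turned, to 0.02, without the arrays highest in epithelial markers.

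The genes for lysosomal breakdown and acidification had higher means with CL but did not pass the test. Ctsk encodes cathepsin K, a protease that cleaves collagen and is best known from osteoclasts and also from fibroblasts. Its level was 7.28, 7.17 and 7.18 in vehicle-treated and 7.93, 8.32 and 7.50 in CL-treated SVF. All CL arrays lay above all vehicle arrays, which were close together. The log2 difference was 0.71 (SE 0.20, 95% interval 0.24 to 1.17, adjusted p = 0.168). It was 0.48 (adjusted p = 0.547) without the arrays highest in epithelial markers. The mean of 7 adipose progenitor markers lay between 9.95 and 10.07 on vehicle arrays and between 10.06 and 10.38 on CL arrays. Of the 7, 5 were higher and 2 lower in the mean, and 0 passed the test (limma). Before adjustment 3 were higher and 0 lower at 0.05, against 9.4% and 5.38% of all genes. Pdgfra, a receptor of adipose progenitors, differed by 0.73 (adjusted p = 0.132), and the matrix genes Col1a1 by 0.46 (0.268) and Lum by 0.36 (0.284). Among the CL arrays Ctsk was highest on replicate 2 and lowest on replicate 3. On CL replicates 1, 2 and 3, Pdgfra read 9.25, 9.63 and 9.63, Col1a1 9.84, 9.92 and 9.68, and Lum 11.16, 11.30 and 11.25. The part of progenitor RNA in the Ctsk level was not tested.

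Atp6v0d2 encodes the d2 subunit of the membrane part of the vacuolar proton pump (V-ATPase), which acidifies lysosomes. Its level was 3.99, 3.64 and 3.44 in vehicle-treated and 3.94, 4.34 and 4.14 in CL-treated SVF. These are values near the background level of 3.59, with vehicle replicate 3 under it and vehicle replicate 1 just above CL replicate 1. The log2 difference was 0.45 (SE 0.18, 95% interval 0.04 to 0.87, adjusted p = 0.300). Signal this close to background holds little information on the size of a change.

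Lgals3, the galactoside-binding lectin galectin-3 that macrophages secrete, had a level of 6.84, 6.58 and 6.83 in vehicle-treated and 7.29, 7.14 and 6.67 in CL-treated SVF. CL replicate 3 lay within the range of the vehicle arrays. On the log2 scale the difference was 0.28 (SE 0.19, 95% interval -0.14 to 0.71, adjusted p = 0.543).

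**Figure D2:**
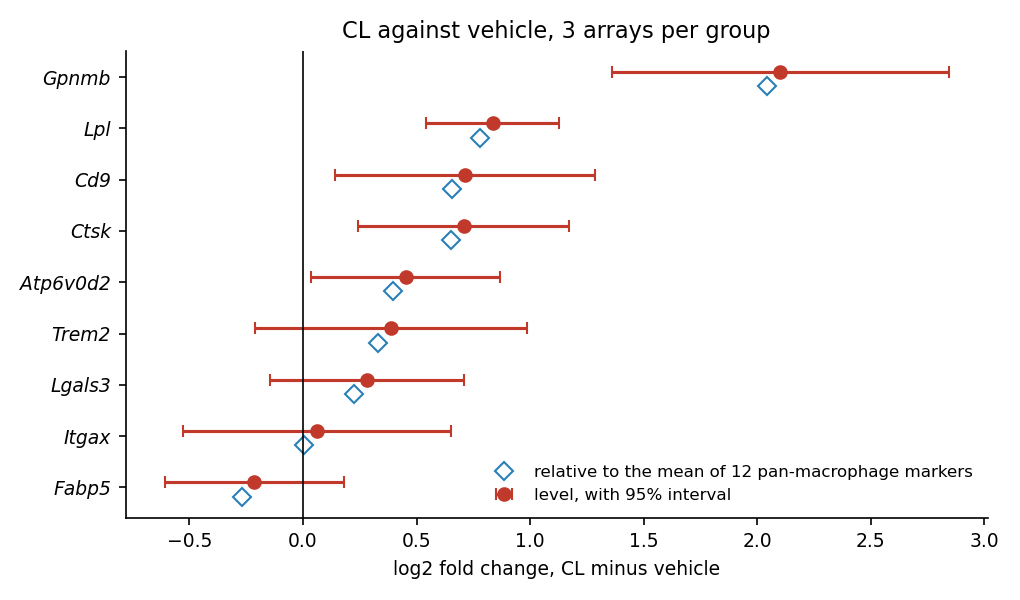
Log2 difference, CL minus vehicle (horizontal axis), of each of the 9 genes for the level itself (filled points, with the 95% interval from limma, 3 arrays per group) and for the level relative to 12 pan-macrophage markers (open diamonds, no interval drawn). Gpnmb stands apart at 2.10 and 2.04, and the intervals of the level of Trem2, Lgals3, Itgax and Fabp5 include 0.

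A level in SVF moves with the share of macrophages in it, so the comparison was repeated after the mean of the 12 pan-macrophage markers was subtracted on each array. Gpnmb rose by 2.04 relative to the markers (SE 0.32, adjusted p = 0.0193), a 4.13-fold change, and was the only one of the 9 genes to pass, where 0.149% of all genes tested passed as higher. Its relative level was -3.68, -2.54 and -3.87 in vehicle-treated and -1.71, -1.26 and -0.98 in CL-treated SVF, again without overlap. The call was lost without vehicle replicate 1 (adjusted p = 0.0713), vehicle replicate 3 (0.0519) or CL replicate 3 (0.0910). Without the 2 arrays highest in epithelial markers it was kept (2.43, SE 0.29, adjusted p = 0.000704). For the level the same fit gave 2.37 (SE 0.29, adjusted p = 0.119). With the resident macrophage markers as base the difference was 2.07 (SE 0.30, adjusted p = 2.88e-06). With the median of the pan-macrophage markers it was 2.05 (SE 0.30, adjusted p = 7.44e-05). Subtracting a value per array from every gene changes the spread that limma shares, so a smaller adjusted p here is not stronger evidence. The methods' t-test gave Gpnmb an unadjusted p of 0.0119 relative to the markers and 0.00938 for the level. After Benjamini-Hochberg adjustment these were 0.425 and 0.307, so by that test the relative result was no stronger. Lpl read 1.17, 1.57 and 1.51 in vehicle-treated and 2.20, 2.08 and 2.31 in CL-treated SVF on this scale. Its groups did not overlap, but the difference of 0.78 did not pass the test (SE 0.19, adjusted p = 0.134). The relative difference was 0.66 for Cd9 (adjusted p = 0.341), 0.65 for Ctsk (0.249), 0.40 for Atp6v0d2 (0.478), 0.33 for Trem2 (0.689), 0.23 for Lgals3 (0.768), 0.00 for Itgax (0.998) and -0.27 for Fabp5 (0.758). Subtracting an average of markers gives a level per macrophage marker RNA and does not count cells.

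Within the groups, no array was high for every gene. Among vehicle arrays, replicate 1 was the highest for 4 genes and replicate 2 for 5, while replicate 3 was the highest for 0 and the lowest for 5. Among CL arrays, replicate 1 was the lowest for 5 genes, and replicates 2 and 3 were each the highest for 4. Vehicle replicate 1 had the highest pan-macrophage mean of its group, 8.95, and the highest Trem2, Atp6v0d2, Lgals3 and Ctsk. Vehicle replicate 2 had the highest Gpnmb, Cd9, Itgax, Lpl and Fabp5.

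Promoter sequences from RefSeq (GRCm38.p6, 250 bases before and 50 after the start of the gene) were found for 6 of the 9 genes, Gpnmb, Trem2, Cd9, Ctsk, Lgals3 and Itgax, and were searched on both strands for 4 short motifs of factors known from macrophages and osteoclasts. The M-box and lysosomal-gene element bound by MITF, TFEB and their relatives (TCACGTG and TCATGTG) was in none of the 6, and each form was in 3.77% of all 32851 promoters of the same length. The AP-1 motif TGAGTCA was in Gpnmb and Itgax and in 5.2% of all promoters. The core of the motif of PU.1, GAGGAA, was in Trem2 and Ctsk and in 28.3% of all promoters. The sequences of Gpnmb, the gene with the largest change, and of the others with a match are shown 5′ to 3′ on the plus strand, which is the sense strand of each, with the match in capitals.
Gpnmb, chr6:49036268-49036517, upstream of the start: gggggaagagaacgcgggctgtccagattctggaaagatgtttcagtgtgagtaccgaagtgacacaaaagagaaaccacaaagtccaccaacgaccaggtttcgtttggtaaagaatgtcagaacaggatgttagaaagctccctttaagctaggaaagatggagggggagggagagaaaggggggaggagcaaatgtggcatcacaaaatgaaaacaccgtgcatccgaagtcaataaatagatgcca
Gpnmb, chr6:49036515-49036544, around the start, AP-1 match read as its reverse complement: ccaggggcaagTGACTCAtgagcacgagtt
Itgax, chr7:128129483-128129512, AP-1 match: cccacctcctcTGAGTCAcgctgacaactt
Trem2, chr17:48346151-48346400, upstream of the start, PU.1 core read as its reverse complement: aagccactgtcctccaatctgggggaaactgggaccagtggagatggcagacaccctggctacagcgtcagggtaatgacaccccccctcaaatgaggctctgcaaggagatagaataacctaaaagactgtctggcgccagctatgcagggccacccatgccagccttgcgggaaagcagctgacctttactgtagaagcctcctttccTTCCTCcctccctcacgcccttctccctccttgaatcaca
Ctsk, chr3:95498960-95499209, upstream of the start, PU.1 core read once on each strand: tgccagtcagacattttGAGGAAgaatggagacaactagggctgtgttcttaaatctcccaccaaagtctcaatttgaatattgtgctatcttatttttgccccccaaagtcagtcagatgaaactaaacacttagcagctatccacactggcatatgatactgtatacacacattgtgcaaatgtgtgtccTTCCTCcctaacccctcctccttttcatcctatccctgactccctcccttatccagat
In Gpnmb, which rose, the match began at base 9 of the gene, and in Itgax, whose groups overlapped, 56 bases before the start. The match in Trem2 lay 40 bases before the start, and those in Ctsk 233 and 58 bases before it. A match of letters in such a window is a description and does not show binding.

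Around these genes, 9 lists of related genes (ligands, adaptors, subunits, partners and other foam cell genes) were compared by the same fit. Of their 95 genes with values, 0 passed the test in either direction (limma). Before adjustment 12 were higher and 5 lower at 0.05 (limma), against 9.4% of all genes higher and 5.38% lower. The methods' t-test, unadjusted, gave 14 higher and 4 lower, against 1561 higher and 1047 lower of all 22180 genes.

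The TREM2 pathway was represented by 12 genes for ligands, the adaptor, signalling proteins and sheddases, with a median log2 difference of 0.09. Before adjustment 1 of the 12 was higher and 0 lower (limma, p under 0.05), against 9.4% and 5.38% of all genes. Tyrobp, the adaptor on which TREM2 depends, read 11.45, 11.20 and 11.38 in vehicle-treated and 11.19, 11.41 and 11.25 in CL-treated SVF. The groups overlapped, with a difference of -0.07 (SE 0.14, adjusted p = 0.879). Btk, a kinase acting downstream of immune receptors, differed by 0.42 (adjusted p = 0.314), Plcg2, a phospholipase downstream of TREM2, by 0.35 (0.416) and Vav3, an exchange factor, by -0.32 (0.607). Apoe, a lipid carrier that TREM2 binds, differed by 0.25 (adjusted p = 0.525).

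The list with most genes near the threshold, also the longest list, was that of other foam cell and disease-associated microglia genes, of which 27 were measured. Their median difference was 0.20. Before adjustment 6 were higher and 1 lower (limma, p under 0.05), against 9.4% and 5.38% of all genes. The groups did not overlap for 10 higher and 2 lower, against 11.2% and 8.72% of all genes. Abcg1, an exporter of cholesterol, read 5.54, 5.73 and 5.67 in vehicle-treated and 6.19, 6.26 and 6.35 in CL-treated SVF. The difference of 0.62 was large against the spread within groups (SE 0.14) but did not pass the test (adjusted p = 0.0950). Ctsz, a lysosomal cysteine protease, read 8.21, 7.77 and 7.97 in vehicle-treated and 8.76, 8.90 and 8.38 in CL-treated SVF, a difference of 0.70 without overlap (SE 0.19, adjusted p = 0.142). Cd36, a scavenger receptor and fatty acid transporter that is also abundant in capillary endothelium, went the other way, from 11.64, 11.89 and 11.75 to 11.32, 10.83 and 11.20. Its difference was -0.65 (SE 0.17, adjusted p = 0.141). Of 6 endothelial markers, 4 were lower and 0 higher before adjustment (p under 0.05), against 5.38% and 9.4% of all genes. On the adjusted test 0 of them passed (limma), and their median difference was -0.63. Cldn5 differed by -0.90 (adjusted p = 0.300), Pecam1 by -0.75 (0.284) and Emcn by -0.73 (0.284), and the part of endothelial RNA in the Cd36 level was not tested.

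**Figure D3:**
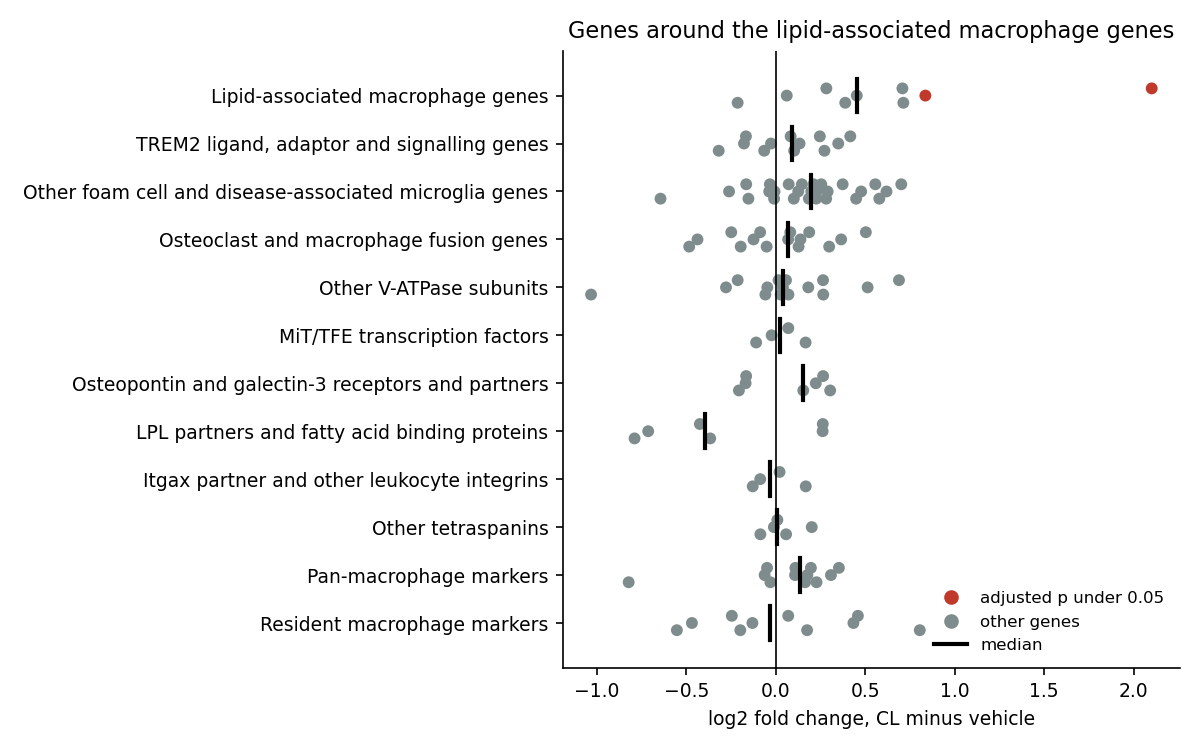
Log2 difference, CL minus vehicle (horizontal axis), of each measured gene of the role lists and of the pan-macrophage and resident macrophage markers, 1 point per gene (red where the adjusted p was under 0.05), with the median of each list as a bar. The 9 lipid-associated macrophage genes have a median of 0.45, and the other lists lie between medians of -0.40 and 0.20.

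The remaining V-ATPase subunits, of which 15 were measured, had a median difference of 0.04. Atp6v0d1, the widely made counterpart of Atp6v0d2, differed by 0.69 (SE 0.19, adjusted p = 0.147), and the accessory subunit Atp6ap1 by 0.51 (SE 0.13, adjusted p = 0.140). Atp6v1f, a subunit of the cytosolic part, read 5.08, 4.99 and 5.21 in vehicle-treated and 3.87, 3.88 and 4.43 in CL-treated SVF. It was lower on every CL array, by 1.03 in the mean (SE 0.18), just short of the threshold (adjusted p = 0.0639). Among 15 osteoclast and macrophage fusion genes (median 0.07), the creatine kinase Ckb differed by 0.50 (adjusted p = 0.204), the carbonic anhydrase Car2 by -0.48 (0.402) and the fusion gene Ocstamp by -0.44 (0.270). The Ocstamp mean was 3.99 in vehicle-treated SVF and 3.55 in CL-treated SVF, the latter under the background level of 3.59. Dcstamp, the other fusion gene, was below background in both groups.

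The MiT/TFE factors, which drive Gpnmb and lysosomal genes in macrophages and melanocytes, had a median difference of 0.02 over 4 genes. Mitf read 6.57, 6.78 and 6.67 in vehicle-treated and 6.78, 6.92 and 6.82 in CL-treated SVF. Its groups were adjacent, with a difference of 0.17 (SE 0.14, adjusted p = 0.631). Tfe3 differed by -0.11 and Tfec by -0.02, and Tfeb was below background in both groups.

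The partners of LPL and the fatty acid binding proteins had the lowest median of the role lists, -0.40 over 6 genes. Gpihbp1, the protein that carries LPL across the capillary endothelium, read 11.60, 11.96 and 11.78 in vehicle-treated and 11.22, 10.51 and 11.25 in CL-treated SVF. Its groups did not overlap, in the direction opposite to Lpl, but the difference of -0.79 did not pass the test (SE 0.22, adjusted p = 0.153). The 6 endothelial markers had a median difference of -0.63, with 0 past the test (limma). The part of endothelial RNA in the Gpihbp1 level was not tested. Pparg, the nuclear receptor that drives Lpl in adipocytes, differed by -0.71 (SE 0.26, adjusted p = 0.258), and Angptl4, an inhibitor of LPL, by -0.43 (adjusted p = 0.398).

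The receptors and partners of osteopontin and galectin-3 (7 genes, median 0.15), the leukocyte integrins (4 genes, median -0.03) and the other tetraspanins (5 genes, median 0.01) had 0 genes past the test (limma). Before adjustment 1 gene of the first list was higher at 0.05, against 9.4% of all genes. Lgals3bp, a secreted partner of galectin-3, differed by 0.30 (SE 0.13, adjusted p = 0.330), and the integrin subunits Itgb5 by 0.26 (0.625) and Itga9 by 0.22 (0.690). Itgb2, the β2 subunit that pairs with the Itgax product, differed by 0.02 (adjusted p = 0.980), Itgam by -0.13 (0.774) and Itgal by -0.09 (0.875). Among the tetraspanins, Cd37 differed by 0.20 (adjusted p = 0.748), Cd53 by -0.09 (0.863) and Cd81 by 0.06 (0.904).

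Other macrophage and monocyte markers were compared to set the values of the 9 genes in context. Among the pan-macrophage markers, the fractalkine receptor Cx3cr1 differed by -0.82 (SE 0.27, adjusted p = 0.214), the complement gene C1qa by 0.35 (0.366) and Csf1r, the receptor for the macrophage growth factor, by 0.31 (0.402). Adgre1, which encodes an adhesion receptor of mature macrophages, differed by -0.05 (adjusted p = 0.933). Among 10 resident macrophage markers, 0 passed (limma). Before adjustment 3 were higher and 0 lower at 0.05, against 9.4% and 5.38% of all genes. The lectin Clec10a differed by 0.80 (adjusted p = 0.128), Lyve1 by -0.55 (0.415) and Mgl2 by -0.47 (0.479). Ly6c2, a surface marker of inflammatory monocytes, fell from 9.10, 9.21 and 9.23 to 8.36, 8.21 and 8.23. It was the only one of the 8 monocyte and neutrophil markers to pass, with a log2 difference of -0.92 (SE 0.13, adjusted p = 0.0366), opposite in sign to that of Gpnmb. Before adjustment 1 of the 8 was higher and 3 lower at 0.05, against 9.4% and 5.38% of all genes. Of the 8, 3 were higher and 5 lower in the mean. The neutrophil genes S100a8 and S100a9 differed by -1.43 (adjusted p = 0.0764) and -0.77 (0.189). Plac8 differed by 0.66 (0.102) and the chemokine receptor Ccr2 by -0.09 (0.882). Over all 12 lists of cell type markers, 2 genes rose and 1 fell among 85 measured, against 0.198% and 0.126% of all genes tested. The genes that rose were those of mast cell proteases, Tpsb2 by 3.32 (adjusted p = 0.0303) and Cpa3 by 3.09 (0.0404).

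The calls for Gpnmb and Lpl were close to the threshold of 0.05 and depended on the setting more than their sizes did. Over all alternatives the adjusted p ranged from 0.0232 to 0.307 for Gpnmb and from 0.00633 to 0.265 for Lpl. Both calls ended with quantile normalization (0.0601 and 0.0715), cyclic loess (0.0602 and 0.0685) and the methods' t-test with Benjamini-Hochberg adjustment (0.307 and 0.168), while the log2 difference stayed between 1.80 and 2.46 for Gpnmb and, apart from the further probe set, between 0.68 and 0.86 for Lpl.

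**Figure D4:**
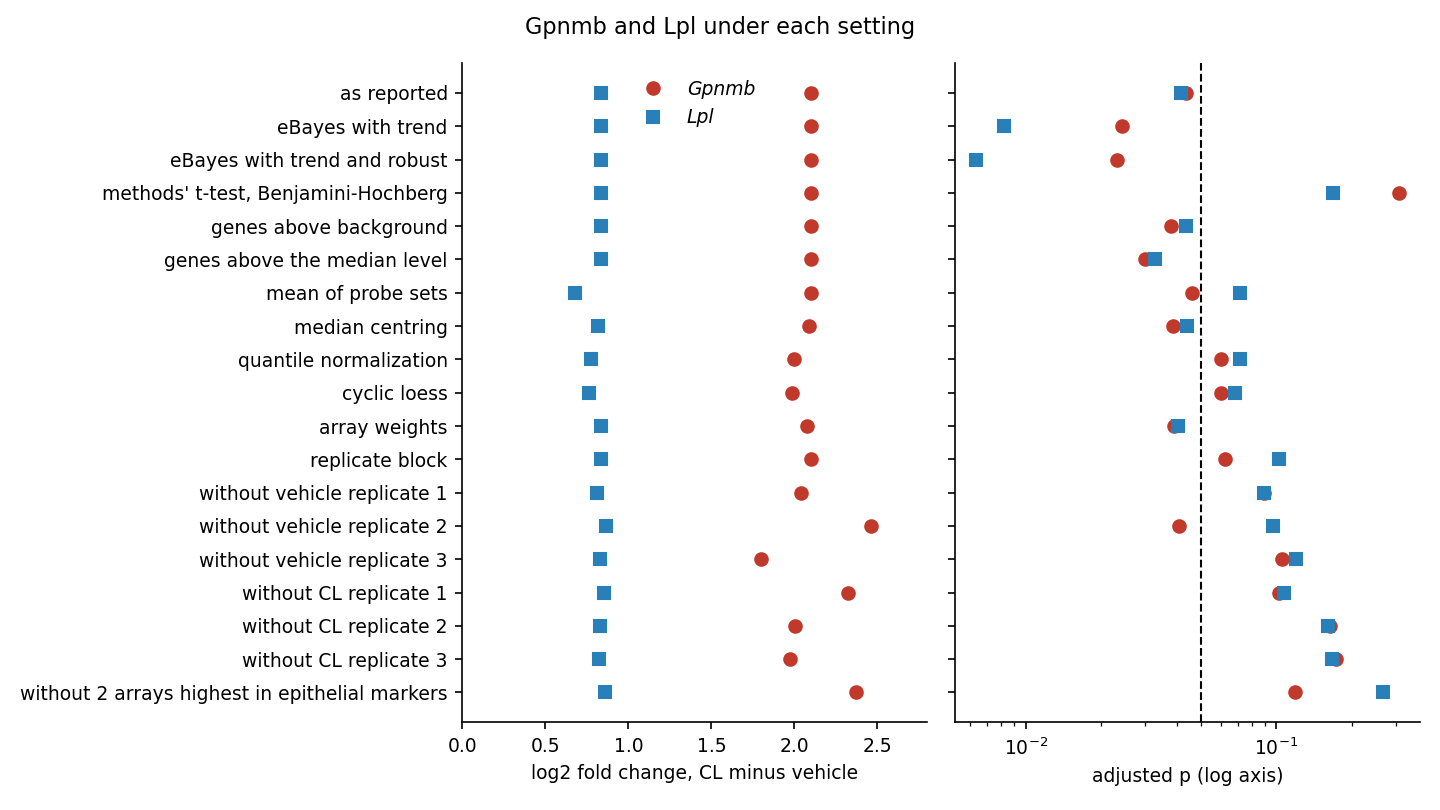
Log2 difference, CL minus vehicle (left), and adjusted p on a log axis (right) of Gpnmb and Lpl under each setting, with the threshold of 0.05 as a dashed line. The differences move little, whereas the adjusted p crosses the threshold, from 0.0232 to 0.307 for Gpnmb.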

How the data were processed

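RNA of the stromal vascular fraction of gWAT was measured on 6 arrays, 3 per group as the labels give them. The deposited values are log2 levels, which the authors made by RMA in Affymetrix Expression Console (versions not given in the sources used here). They were used without further scaling, and all 6 value columns were used. Of 41345 probe sets, 23521 carry 1 gene symbol in the array annotation, 1820 several and 16004 none. Only the first kind was used, and for the 1082 genes with several the probe set with the highest mean stood for the gene.

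The test was two-sided limma 3.58.1 (lmFit and eBayes, no trend) under R 4.3.3, adjusted by the Benjamini-Hochberg method over 22180 genes, with a threshold of 0.05, and the code was tested on simulated data. The background level is the 95th percentile of the means of 1390 receptors of smell. Precision is limited by the number of arrays. No batch is given in the sources used here. The methods' t-test (the two-sided test of the paper's general statistics section; the array methods name none) was run as an alternative. The other alternatives were eBayes with trend and robust, filters on level, the mean of probe sets, every probe set, median centring, quantile normalization, cyclic loess, array weights, a replicate block and leaving out each array. Leaving out the arrays with the highest epithelial markers was added after seeing the data.

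Text names all the followed genes, genes of a list past the threshold or else the 3 with the largest difference above background, and the 5 genes with the most similar pattern. Apoe, Tyrobp, Adgre1, Plin4, Cidec, Dcstamp, Tfeb, Lep, S100a8, S100a9, Plac8 and Ccr2 were named outside this rule, with their values known. The members and lists were chosen with earlier results of these data known. Some genes of the lists were not analysed here.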

Additional observations from a re-analysis of the deposited data

How the results depend on the processing

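Over all genes, 72 passed the test (44 higher, 28 lower, 61.1% higher). The count was 153 with trend, 177 with trend and robust, 161 among genes above the median level, 2608 by the methods' t-test unadjusted (1561 higher, 1047 lower) and 0 after its Benjamini-Hochberg adjustment. It was 0 to 31 when each array was left out. Quantile normalization gave 25 higher and 32 lower (43.9% higher) and cyclic loess 23 and 30 (43.4%). Without the arrays highest in epithelial markers it was 0, with 1222 higher and 891 lower before adjustment (limma, p under 0.05).

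Of the 9 genes, 2 passed, but 1 with the mean of probe sets, 0 with quantile normalization, 0 with cyclic loess, 0 by the methods' t-test adjusted, 0 without the arrays highest in epithelial markers, and 0 to 1 when each array was left out. Relative to the pan-macrophage markers 1 passed, with 2 under trend, 2 under trend and robust, 0 by the methods' t-test adjusted, and 0 to 1 when each array was left out. The methods' t-test unadjusted gave 4 on this scale. No count over all genes is given here for it, so the 4 is not read as a result. Of the genes of all lists 3 passed, with 6 under trend, 5 under trend and robust, 7 above the median level, 0 by the methods' t-test adjusted, 0 without the arrays highest in epithelial markers, and 0 to 1 when each array was left out. The methods' t-test unadjusted gave 35 among the 95 genes of the role lists and 85 of the cell type lists. Over all 22180 genes it gave 2608. Where counts fell on leaving out arrays, fewer arrays entered the fit, and for the other settings the cause was not tested.

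The correlation of deviations between arrays of the same replicate number was -0.0046, 0.0984 and 0.0603. Between arrays of different number it lay between -0.1004 and 0.0477. These values do not settle whether the numbers pair the samples. With the number as a replicate block, 15 genes passed over all, 0 of the 9 genes (adjusted p = 0.0622 for Gpnmb and 0.102 for Lpl) and 0 of all lists, and Gpnmb passed relative to the markers.

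Directions turned for 3 genes, none of them past the test. Fabp5 was 0.055 and 0.26 by other probe sets (0.20 for the last, relative to the markers) and 0.018, or 0.076 relative to the markers, without the arrays highest in epithelial markers. The dim probe set of Cd9 was at -0.037 relative to the markers. Itgax was -0.037 with quantile normalization, -0.029 with cyclic loess, and between -0.11 and 0.33 when each array was left out (-0.11 without vehicle replicate 3, -0.04 without CL replicate 1 and -0.11 without CL replicate 2). Relative to the markers it lay between -0.12 and 0.23, and was -0.09 without vehicle replicate 1, -0.12 without vehicle replicate 3, -0.12 without CL replicate 1 and -0.10 without CL replicate 2. No other direction of the 9 genes turned under the alternatives run.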

Other observations

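The genes whose levels over the 6 arrays were most similar to the mean standardized level of the 9 genes, among 13601 candidates above background and outside the lists, were Rpl29, a ribosomal protein gene (Pearson r = 0.998), Col14a1, a fibrillar-associated collagen of fibroblasts (0.998), Eef1d, a translation elongation factor gene (0.996), U2af1l4, a splicing factor gene (0.995), and Slc9a8, a sodium-proton exchanger gene (0.994). These correlations across 6 arrays of 2 groups, picked as the highest of many, are a description without a test. The log2 differences of these genes were 0.28, 0.45, 0.66, 0.79 and 0.33, and none passed the test, with adjusted p-values between 0.106 and 0.388 (limma).

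Of 5 proliferation markers, 0 passed the test (limma), and their median log2 difference was 0.72. Before adjustment 2 were higher and 0 lower at 0.05, against 9.4% and 5.38% of all genes. Cdk1, the kinase that drives entry into mitosis, read 5.65, 5.01 and 5.03 in vehicle-treated and 6.91, 6.16 and 6.18 in CL-treated SVF, a difference of 1.19 without overlap (SE 0.25, adjusted p = 0.0909). Top2a, a topoisomerase of dividing cells, differed by 0.80 (adjusted p = 0.315) and Birc5, which encodes survivin, by 0.72 (0.504). CL replicate 1, the highest of its group for Cdk1, was the lowest for Gpnmb.

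Markers of the remaining cell types had 0 genes past the test (limma). Among 6 dendritic cell markers, 2 were higher and 1 lower before adjustment (p under 0.05), against 9.4% and 5.38% of all genes. Xcr1 differed by 0.64 (adjusted p = 0.114), Cd209a by -0.56 (0.307) and Batf3 by 0.38 (0.294). Among 8 T, NK and B cell markers, 1 was higher and 0 lower before adjustment, against the same 9.4% and 5.38%. Ms4a1 differed by -0.58 (adjusted p = 0.495), Ncr1 by 0.46 (0.217) and Cd79a by -0.40 (0.484). None of the 6 mesothelial and 4 epithelial markers was past 0.05 before adjustment. The mesothelial Krt19 differed by 0.46 (adjusted p = 0.770), Lrrn4 by -0.37 (0.725) and Wt1 by -0.11 (0.864), and the epithelial Epcam by 0.80 (0.726), Krt18 by 0.69 (0.851) and Krt8 by 0.52 (0.824).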
